A study of Rattus norvegicus with 78 samples.

Results

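Carbonic anhydrases were examined on the rat arrays through every probeset (a set of short oligonucleotides that reports 1 transcript) whose annotated gene symbol was Car2, Car3, Car4, Car5b, Car7, Car8, Car10, Car11, Car12 or Car14, written with Car or with Ca. The 10 genes were represented by 17 of the 31042 probesets that were not array controls. In the hippocampus (HIP) 13 of these probesets, from 8 genes, passed the filter on low signal, for which at least 50% of FRL and 50% of FSL arrays had to exceed an intensity of 30. In the prefrontal and frontal cortex (P/FC) 14 probesets from 9 genes passed it. Car12 passed in neither region, and neither did the second probesets of Car4 and Car5b. Car8 passed in P/FC only.

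The arrays were made from adult male rats of 2 lines that were bred in opposite directions, the Flinders Sensitive Line (FSL), a model of depression-like behaviour, and its control, the Flinders Resistant Line (FRL). No drug or transgene is named in the labels for either line, and all rats had gone through a forced swim test and a rest before the tissue was taken. Cohort 1 held 12 FRL and 9 FSL rats and cohort 2, raised some months later, held 10 FRL and 8 FSL rats, and each rat was labelled as a biological replicate, so that each region had 39 arrays and the series 78. A line compared with another line differs at many loci at once and in its breeding history. The 2 regions were processed separately, as were the cohorts, whose reagents and chip lots differed, and a difference between regions cannot be told apart from one of processing. Exact ages were not given in the labels.

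Carbonic anhydrases convert carbon dioxide and water to bicarbonate and a proton, and the reverse, and so set how fast pH is buffered inside and around cells. In the brain the isoforms are divided among cell types. Car2 is the fast cytosolic enzyme of oligodendrocytes and of the choroid plexus epithelium, Car4 is anchored to the outer membrane of capillary endothelium, and Car14 spans the membrane with its active site outside the cell. Car7 is the cytosolic enzyme of mature neurons, where bicarbonate carries part of the current through GABA-A receptors. Car8, Car10 and Car11 are carbonic anhydrase-related proteins that have lost the catalytic site; Car8 binds the inositol trisphosphate receptor, and Car10 and Car11 are bound by neurexins at synapses. Car3 is a slow cytosolic enzyme best known from skeletal muscle, fat and liver, and Car5b is a mitochondrial enzyme. Car2, Car4 and Car14 were grouped as glial or vascular members and Car7, Car8, Car10 and Car11 as neuronal members, although Car14 protein is also known from neurons. Car3, Car5b and Car12 were left without a class.

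Array medians lay between 56.8 and 63.0 in HIP and between 60.8 and 66.0 in P/FC, and 69.8 to 74.2% of the probesets of an array lay above 30. FSL differed from FRL in markers of other cells of the same tissue. Of the astrocyte markers, 5 of 9 were lower in FSL in HIP and 7 of 9 in P/FC, and of the neuronal markers 4 of 10 and 6 of 10 were higher. Of all probesets 4.13% in HIP and 8.86% in P/FC were lower, and 3.20% and 9.76% were higher. The 9 oligodendrocyte markers gave no call in either region. For Actb the signal of the 3′ control probeset over that of the 5′ one, a sign of RNA quality, was on the log2 scale 0.76 ± 0.10 in FRL and 0.66 ± 0.08 in FSL in HIP (SD, n = 22 and 17). In P/FC the same ratio for Gapdh was 0.87 ± 0.11 and 0.78 ± 0.06. The lines lay closer for Gapdh in HIP (0.83 ± 0.08 in FRL and 0.79 ± 0.07 in FSL) and for Actb in P/FC (0.79 ± 0.15 and 0.73 ± 0.13). The part of cell makeup and RNA quality in the differences below was tested only where a covariate is given.

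RefSeq promoter sequence (GRCr8) was found for 7 of the 10 members, and Car2, Car3 and Car8 were not among them. The windows of 3 members are shown because their signal differed most between regions (Car10) or its line difference was called in 1 region (Car4 and Car11). Each is the 250 bases before the annotated start, 5′ to 3′ on the gene's strand, which is the plus strand for all 3. They lie at chr10:78550817-78551066 for Car10, chr10:70325108-70325357 for Car4 and chr1:105306290-105306539 for Car11. Capitals mark a match to 1 of 4 motifs that were searched on both strands and do not overlap here: the GC box GGGCGG, the TATA box TATAAA, the CCAAT box CCAAT and the cAMP response element TGACGTCA.
Car10: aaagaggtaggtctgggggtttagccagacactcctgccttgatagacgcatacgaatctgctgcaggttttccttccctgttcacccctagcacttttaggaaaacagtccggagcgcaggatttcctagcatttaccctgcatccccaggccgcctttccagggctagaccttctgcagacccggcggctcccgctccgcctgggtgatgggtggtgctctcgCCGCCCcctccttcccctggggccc
Car4: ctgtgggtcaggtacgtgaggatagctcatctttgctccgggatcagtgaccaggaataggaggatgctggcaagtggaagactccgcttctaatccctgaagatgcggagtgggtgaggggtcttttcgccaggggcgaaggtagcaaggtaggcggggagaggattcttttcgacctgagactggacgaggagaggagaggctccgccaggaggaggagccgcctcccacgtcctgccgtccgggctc
Car11: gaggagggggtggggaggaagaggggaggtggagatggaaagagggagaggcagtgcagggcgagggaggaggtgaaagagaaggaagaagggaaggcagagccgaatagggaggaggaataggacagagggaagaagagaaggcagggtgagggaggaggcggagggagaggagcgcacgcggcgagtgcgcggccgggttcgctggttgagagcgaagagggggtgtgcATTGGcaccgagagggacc
Car10 held 1 GC box, read as CCGCCC on this strand, and Car11 held 1 CCAAT box, read as ATTGG. Car4 matched none of the 4 motifs. Among all 33469 promoters of the table, 30.5% held a GC box, 34% a CCAAT box, 12.9% a TATA box and 1.59% a cAMP response element. All 3 windows were rich in CG dinucleotides, with 11 in Car10, 14 in Car4 and 13 in Car11 against a median of 5. As many or more were held by 33.6%, 27.6% and 29.4% of all promoters. A match describes letters in the window and is no evidence of a bound factor.

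Levels are given as array intensities on the scale of the deposited values. Probesets differ in how well they bind, so levels were compared only within a probeset. A change is the log2 difference of FSL minus FRL over both cohorts from limma, and it was called when its Benjamini-Hochberg adjusted p over all kept probesets was below 0.05. Of the 8 members kept in HIP, 3 were lower in FSL (Car2, Car3 and Car11), none was higher and 5 were not called. In HIP 4.13% of all probesets were lower and 3.20% higher. Of the 9 members kept in P/FC, 3 were lower in FSL (Car2, Car3 and Car4) and none was higher, where 8.86% of all probesets were lower and 9.76% higher. The median change of the members' main probesets (those with the highest mean) was -0.11 in HIP and -0.07 in P/FC, beside -0.0016 and 0.0019 over all probesets. FSL and FRL arrays overlapped for every member probeset, and 0.0878% of all probesets in HIP and 0.0849% in P/FC did not overlap.

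**Figure D1:**
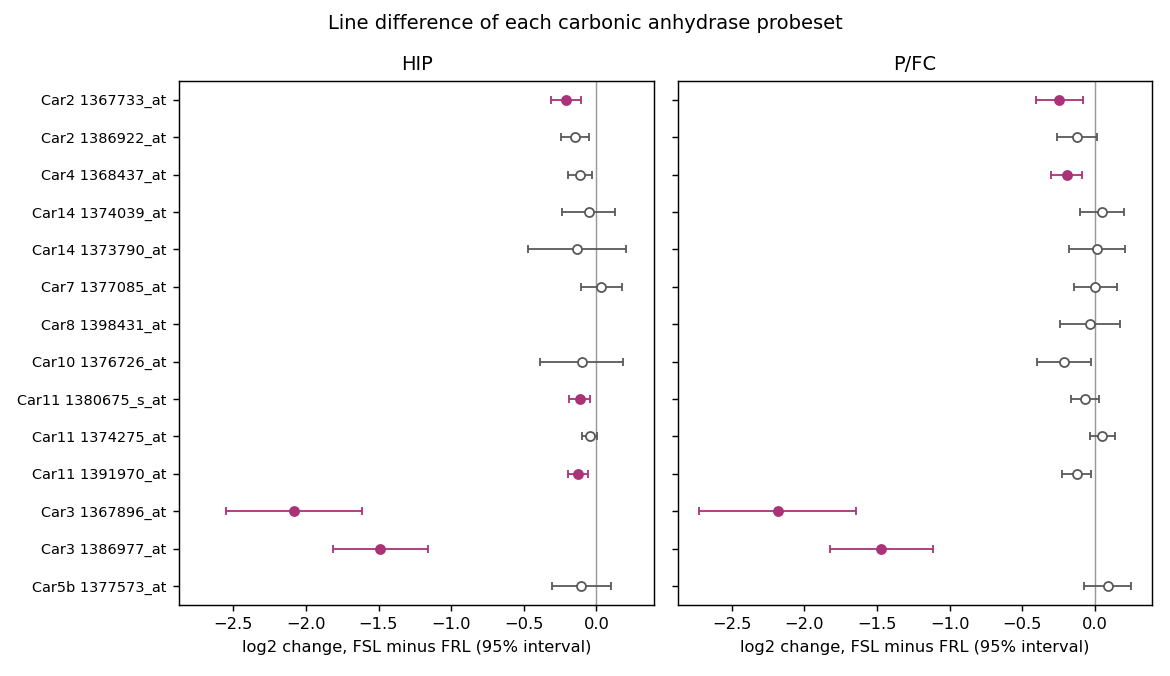
Log2 change, FSL minus FRL over both cohorts, of each kept carbonic anhydrase probeset in HIP and P/FC (points, with 95% intervals as bars; filled points were called at an adjusted p below 0.05). Both Car3 probesets stand far below 0 in both regions, at -2.08 and -1.49 in HIP and -2.18 and -1.47 in P/FC, and all other changes lie between -0.24 and 0.09.

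Car3 showed the largest change of the family. On its main probeset, 1367896_at, the HIP intensities of FRL rats ran from 67.1 through a median of 375 to 608, and those of FSL rats from 57.1 through 75.9 to 106. In P/FC they ran from 39.6 through 377 to 640 in FRL and from 50.01 through 64.4 to 96.0 in FSL. All 17 FSL arrays lay below the FRL median in each region, while 3 of 22 FRL arrays in HIP and 3 of 22 in P/FC fell at or below the highest FSL array. The FRL mean was 387 ± 170 and the FSL mean 80.6 ± 15.2 in HIP (SD, n = 22 and 17), which is a log2 change of -2.08 (SE 0.23, 4.23-fold lower, limma adjusted p = 2.67e-08). In P/FC the means were 351 ± 162 and 66.1 ± 13.0, a log2 change of -2.18 (SE 0.27, 4.54-fold lower, limma adjusted p = 2.05e-07). By size of change the probeset was the third of 21630 in HIP and the third of 22370 in P/FC.

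The few low FRL arrays stood apart from the rest of their line. In HIP they read 75.8 and 67.1 in cohort 1 and 78.8 in cohort 2, and the next lowest FRL arrays read 281 and 310. In P/FC they read 39.6 and 52.8 in cohort 1 and 59.0 in cohort 2, below next values of 237 and 232. These readings lay within or below the range of FSL rats, and the remaining FRL arrays all lay above it. The second Car3 probeset, 1386977_at, was dimmer, with FRL means of 110 ± 37.8 in HIP and 103 ± 38.8 in P/FC and FSL means of 36.7 ± 5.94 and 34.9 ± 7.99. It changed by -1.49 in HIP (SE 0.16) and by -1.47 in P/FC (SE 0.17). Over the 39 arrays of a region, after group means were removed, its correlation with the main probeset was 0.92 in HIP and 0.88 in P/FC. That correlation was 0.96 and 0.94 among FRL arrays and 0.27 and 0.41 among FSL arrays, where the dimmer probeset was near the filter level of 30 and the main one read 50.01 or more. The labels do not tie a HIP array to a P/FC array of the same rat, so whether the low FRL readings of the regions came from the same rats was not tested.

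Car3 was lower in FSL in each cohort and in each region. The log2 changes of the main probeset were -1.92 in cohort 1 and -2.24 in cohort 2 in HIP, and -1.86 and -2.50 in P/FC, with limma adjusted p-values between 3.59e-05 and 0.00127. Within cohort 1 and cohort 2, 1.41% and 1.39% of all HIP probesets and 4.01% and 1.98% of all P/FC probesets were lower in FSL. Since Car3 is abundant in muscle and fat, markers of both tissues were read beside it. Of the muscle markers none of 5 was called in HIP and 1 of 5 (Myh1, -0.18) was lower in P/FC, and the mean log2 score of the muscle list ranged from 5.43 to 6.16 in FRL and from 5.53 to 6.03 in FSL in HIP. In P/FC that score ranged from 5.53 to 6.17 and from 5.80 to 6.14. Of the 7 muscle markers with a probeset, Myh1 (group means of 1686 to 2015), Acta1 (103 to 146), Ckm (43.0 to 49.4), Tnnt3 (36.3 to 42.5) and Myh2 (31.1 to 38.1) passed the filter, and Myh4 (8.13 to 9.25) and Mb (20.03 to 24.5) did not. Myh1 read far above the other muscle markers and is part of the score, and whether its probeset reports muscle tissue was not tested. Below the filter were also the fat markers Cidec (5.35 to 9.37) and Fabp4 (8.01 to 10.9). None of the fat markers that were kept was called, 1 in HIP and 2 in P/FC.

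**Figure D2:**
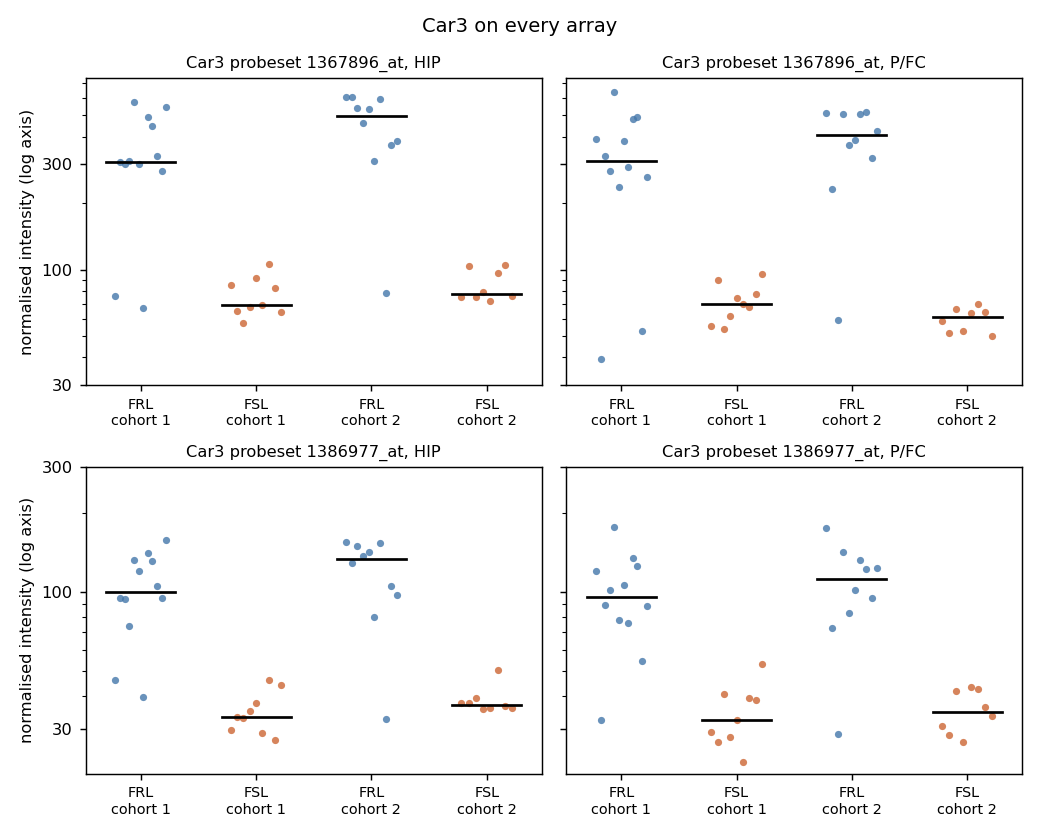
Car3 intensity (log axis) of every array by region, line and cohort, for the main probeset 1367896_at above and 1386977_at beneath, each point 1 array and each black bar the median of the group. On the main probeset FSL arrays lie between 50.01 and 106, and most FRL arrays lie above 230, with 3 low FRL arrays in HIP (67.1 to 78.8) and 3 in P/FC (39.6 to 59.0).

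In the RefSeq order of genes (GRCr8) Car2 and Car1 lie next to Car3 among the genes with a probeset. Car1, an enzyme of red blood cells, had a log2 change of -0.05 in HIP (adjusted p = 0.88) and did not pass the filter in P/FC. Over the 20 genes on each side of Car3 that had a probeset, 4 of 37 kept probesets were called in HIP (10.8%) and 13 of 36 in P/FC (36.1%), where 7.33% and 18.6% of all probesets were called. In HIP 2 of those genes were lower in FSL and 2 higher, and in P/FC 3 were lower and 9 higher. Car2 is counted among the lower genes in both regions. The starts of the genes counted lie between -10286 and 6512 kb from the start of Car3, so many are not close to it.

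Car2, the oligodendrocyte enzyme, was lower in FSL in both regions by less than 1.2-fold. On its main probeset, 1367733_at, HIP intensities ran from 859 through 1081 to 1288 in FRL rats and from 785 through 875 to 1275 in FSL rats. In P/FC they ran from 531 through 862 to 1167 in FRL and from 546 through 728 to 887 in FSL. The lines overlapped broadly, with 15 of 17 FSL arrays below the FRL median in HIP and 16 of 17 in P/FC. The means were 1067 ± 112 in FRL and 923 ± 121 in FSL in HIP (SD, n = 22 and 17), a log2 change of -0.21 (SE 0.052, 1.16-fold lower, limma adjusted p = 0.0088). In P/FC the means were 860 ± 164 and 722 ± 89.2, a log2 change of -0.24 (SE 0.079, 1.18-fold lower, limma adjusted p = 0.0258). In whole tissue, fewer cells of a type and less RNA per cell cannot be told apart.

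The second Car2 probeset, 1386922_at, lay below 0 in both regions but was not called, with a log2 change of -0.15 in HIP (SE 0.048, adjusted p = 0.0568) and -0.12 in P/FC (SE 0.069, adjusted p = 0.22). When the 2 probesets were averaged, the P/FC change was -0.18 with an adjusted p of 0.0638. By cohort the main probeset changed by -0.24 and -0.17 in HIP and by -0.15 and -0.33 in P/FC, and no single cohort passed the threshold. With the Actb ratio as a covariate the HIP change was -0.22 (adjusted p = 0.0982), and with the Gapdh ratio the P/FC change was -0.22 (adjusted p = 0.20). With the striatal score as a covariate the P/FC change was -0.35 (adjusted p = 0.0005).

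Car2 followed the oligodendrocyte genes from array to array. Over the 39 P/FC arrays, after group means were removed, its correlation with the mean log2 level of the oligodendrocyte markers was 0.95, and it was 0.96 among FRL and 0.92 among FSL arrays. In HIP it was 0.64. These points share the array and its dissection, and they are a description. The 5 genes most like Car2 in P/FC were Cnp (0.94), Mog (0.93), Apod (0.93), Cldn11 (0.92) and Gsn (0.91), of which Cnp, Mog and Cldn11 encode myelin proteins. In HIP they were Cd9 (0.75), Cers2 (0.74), Stk39 (0.71), Myo1d (0.70) and Gsn (0.69).

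The oligodendrocyte score itself was 9.96 in FRL and 9.90 in FSL in HIP and 9.68 in both lines in P/FC. It ranged from 8.76 to 10.13 over the FRL and from 9.42 to 9.97 over the FSL arrays of P/FC, and none of its 9 markers was called in either region. With this score as a covariate the Car2 change was -0.18 in HIP (SE 0.042, adjusted p = 0.0066). In P/FC it was -0.24 (SE 0.029, adjusted p = 1.44e-07), with an SE less than the 0.079 of the fit without the score. The second probeset with the score gave -0.12 in P/FC (SE 0.030, adjusted p = 0.0032).

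**Figure D3:**
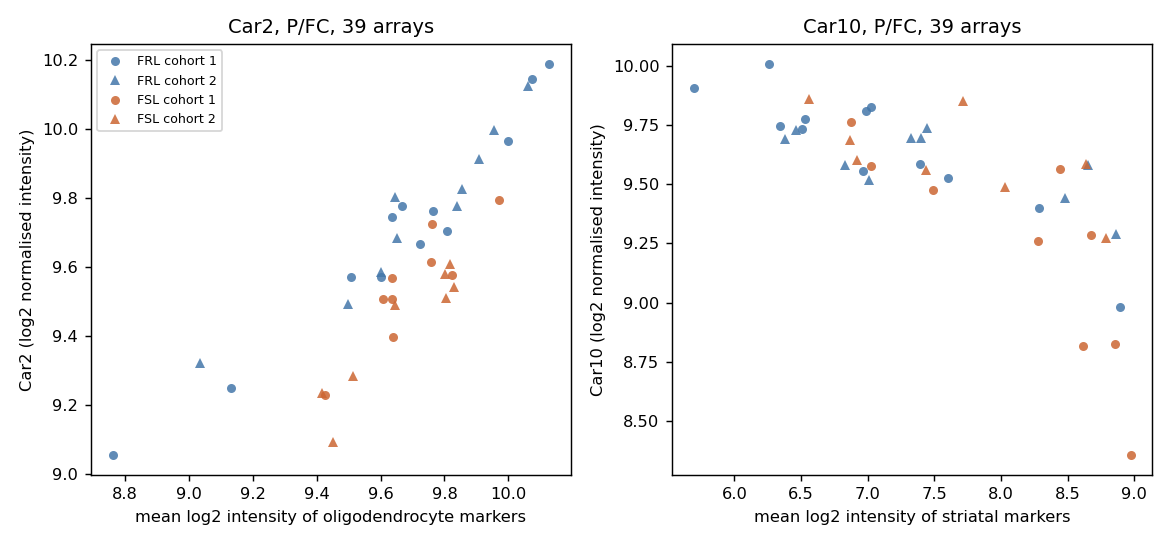
Left, Car2 (probeset 1367733_at) against the mean log2 level of the oligodendrocyte markers, and right, Car10 (probeset 1376726_at) against that of the striatal markers, over the 39 P/FC arrays, with colour for line and marker shape for cohort. Car2 rises with the oligodendrocyte score, with FSL arrays mostly below FRL arrays of the same score, and Car10 falls as the striatal score rises from 5.70 to 8.97.

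Car4, the endothelial enzyme, was lower in FSL in P/FC. Its main probeset, 1368437_at, ran from 131 through 159 to 236 in FRL and from 118 through 143 to 165 in FSL in P/FC. The lines overlapped, and 15 of 17 FSL arrays lay below the FRL median. The means were 165 ± 25.3 and 143 ± 12.4 (SD, n = 22 and 17), a log2 change of -0.19 (SE 0.053, 1.14-fold lower, limma adjusted p = 0.0093). In cohort 1 the change was -0.26 (adjusted p = 0.0241), with means of 176 ± 28.5 and 145 ± 8.58, and in cohort 2 it was -0.13 and not called. Cohort 1 fitted without cohort 2 gave the same change with an adjusted p of 0.0617. In HIP it ran from 140.1 through 157 to 188 in FRL and from 130.4 through 145 to 174 in FSL, and the log2 change was -0.11 (SE 0.041, adjusted p = 0.0906, 95% interval -0.19 to -0.03). The difference between the changes of the regions was -0.08 (95% interval -0.22 to 0.05, adjusted p = 0.80), so a change in 1 region only was not shown.

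Markers of endothelium moved in the same direction as Car4 in P/FC. Of 7 endothelial markers, 4 were lower in FSL in P/FC (Tek -0.28, Cldn5 -0.28 and Vwf -0.60 among them) and 1 in HIP (Cldn5 -0.13). Of all probesets 8.86% were lower in P/FC and 4.13% in HIP. The mean log2 score of that list ranged from 6.74 to 7.63 in FRL and from 6.73 to 7.18 in FSL in P/FC, and its part in the Car4 difference was not tested. With the score of striatal markers as a covariate the Car4 change was -0.13 (adjusted p = 0.0734), and with the Gapdh ratio it was -0.17 (adjusted p = 0.125). The genes most like Car4 in P/FC were Cpne9 (0.76), Aldh3b1 (0.68), Hopx (0.67), Plcxd2 (0.67) and Bcl2l2 (0.67), and none of them is on the list of endothelial markers. The second Car4 probeset, 1391132_at, had group means between 14.4 and 24.2 and was not tested.

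Car14 was not called between lines. Its main probeset, 1374039_at, ran from 58.4 through 78.8 to 118 in FRL and from 58.4 through 78 to 131 in FSL in HIP, and from 40.4 through 51.3 to 69.6 and from 41.3 through 57.2 to 76.2 in P/FC. The log2 change was -0.05 in HIP (95% interval -0.24 to 0.13) and 0.05 in P/FC (-0.10 to 0.20). In HIP the level of Car14 followed the score of choroid plexus markers with a correlation of 0.67 over 39 arrays, and that score ranged from 5.67 to 8.58 in FRL and from 5.81 to 8.81 in FSL. The genes most like it in HIP were Adamtsl4 (0.76), Sh3d19 (0.73), Stk39 (0.72), Prkcq (0.72) and Col9a3 (0.71). Its 2 probesets correlated at 0.55 in HIP and at 0.10 in P/FC.

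As a group, 1 of the 3 glial or vascular members was lower in FSL in HIP and 2 of 3 in P/FC, with medians of -0.11 and -0.19. Of the neuronal members 1 of 3 was lower in HIP and none of 4 in P/FC, with medians of -0.10 and -0.05. The member lower in HIP was Car11, whose main probeset there followed endothelial genes from array to array, as given below. None of either group was higher, and of all probesets 4.13% were lower in HIP and 8.86% in P/FC. The groups hold 3 and 4 genes, and no difference between them was tested.

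Car11, a neurexin ligand, was lower in FSL in HIP on 2 of its 3 probesets. Probeset 1391970_at ran from 494 through 542 to 646 in FRL and from 447 through 492.8 to 577 in FSL, with 15 of 17 FSL arrays below the FRL median. Its means were 547 ± 40.6 and 502 ± 35.7 (SD, n = 22 and 17), a log2 change of -0.12 (SE 0.033, 1.09-fold lower, limma adjusted p = 0.0139). Probeset 1380675_s_at ran from 835 through 1043 to 1209 in FRL and from 887 through 968 to 1082 in FSL. It gave means of 1045 ± 94.6 and 962 ± 49.6 and also a change of -0.12 (SE 0.037, limma adjusted p = 0.0480). Both are annotated to the same transcript accession, so they are not independent readings of the gene. The remaining probeset, 1374275_at, changed by -0.04 (SE 0.025, adjusted p = 0.31).

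In P/FC none of the Car11 probesets was called, and their changes of -0.12 (adjusted p = 0.0744), -0.07 and 0.05 did not share a sign. With the striatal score as a covariate the first of these, 1391970_at, was -0.19 and was called (adjusted p = 0.0047). Nor was a single cohort called in HIP. With the Actb ratio as a covariate both HIP probesets changed by -0.09 and lost the call (adjusted p = 0.37 and 0.45), and with the Gapdh ratio the values were -0.10 and -0.10 (adjusted p = 0.0661 and 0.126). Likeness was computed for the main Car11 probeset only, 1380675_s_at. In HIP the genes most like this probeset were Dcaf11 (0.81), Cldn5 (0.81), Slco1a4 (0.79), Speg (0.77) and R3hdm2 (0.73). Its correlation with the endothelial score was 0.76. Cldn5 and Slco1a4 are endothelial genes, and the endothelial score ranged from 6.51 to 7.10 in FRL and from 6.56 to 7.13 in FSL in HIP. In P/FC the genes most like the main Car11 probeset were Rps16 (0.82), Rps23 (0.82), Smdt1 (0.81), Dnpep (0.80) and Ptpn5 (0.79).

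**Figure D4:**
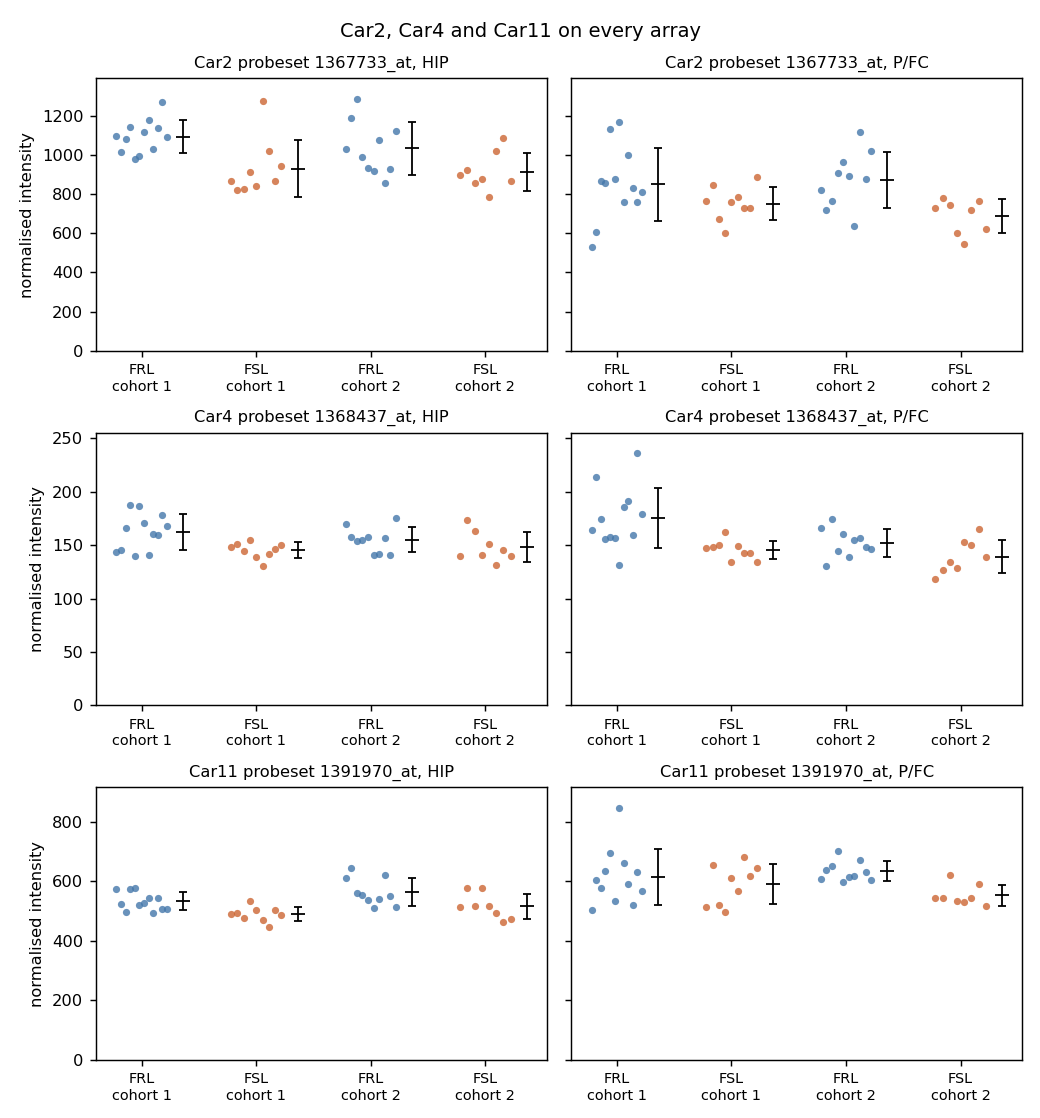
Intensities (linear axis from 0) of Car2 (1367733_at), Car4 (1368437_at) and Car11 (1391970_at) on every array by region, line and cohort, each point 1 array, with the mean and SD of each group. The probeset shown for each gene is the one with the smallest p between lines in a region where the gene was called. FSL means are below FRL means in each cohort and region for all 3 probesets, and the arrays of the lines overlap in every panel. The remaining Car11 probesets did not share this in every group. In P/FC of cohort 1 their FSL and FRL means were 614 and 585 (1374275_at) and 1229 and 1228 (1380675_s_at).

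Car10, the other neurexin ligand, was not called over both cohorts in either region. In P/FC its probeset, 1376726_at, ran from 505 through 828 to 1031 in FRL and from 327 through 754 to 930 in FSL, and the log2 change was -0.21 (SE 0.091, adjusted p = 0.10, 95% interval -0.40 to -0.03). In cohort 1 the P/FC arrays averaged 819 ± 141 in FRL and 619 ± 178 in FSL (SD, n = 12 and 9), and the change of -0.44 was called (SE 0.12, limma adjusted p = 0.0239). That call rests on the spread of both cohorts together, and cohort 1 fitted without cohort 2 gave the same change with an adjusted p of 0.0887. In cohort 2 the means were 777 ± 75.1 and 789 ± 104 (n = 10 and 8), and the change was 0.02. The difference between the cohorts was 0.46 (p = 0.0166 from limma, adjusted p = 0.998), and so it did not pass the test over all probesets. In HIP Car10 ran from 44.4 to 189 in FRL and from 54.3 to 155 in FSL, with a change of -0.10 (95% interval -0.39 to 0.19).

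Car10 in P/FC moved against the genes of striatal projection neurons. The P/FC sample was the whole frontal lobe of 1 hemisphere, and its striatal score ranged from 5.70 to 8.89 over FRL and from 6.56 to 8.97 over FSL arrays. In cohort 1 the mean score was 7.04 in FRL and 8.13 in FSL, and in cohort 2 it was 7.48 and 7.62. The correlation of Car10 with that score over the 39 arrays, after group means were removed, was -0.72. With the score as a covariate the change of Car10 was -0.17 in cohort 1 (adjusted p = 0.42) and -0.06 over both cohorts (adjusted p = 0.61). The genes most like Car10 in P/FC were Stx1a, Gypc, Nudt4, Camkk1 and Slc30a3, each at 0.92. In HIP they were Gfm1 (0.73), Pxk (0.73), Mgat5b (0.72), Uba1 (0.71) and Znhit1 (0.71).

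Car7, the neuronal enzyme, was not called between lines in either region. In HIP it ran from 72.1 through 107 to 131 in FRL and from 78.7 through 102 to 129 in FSL, and in P/FC from 88.6 through 122 to 147 and from 81.3 through 122 to 145. The log2 change was 0.03 in HIP (95% interval -0.11 to 0.18) and 0.00 in P/FC (-0.15 to 0.15). Its array-to-array pattern resembled that of Car10, with a correlation of 0.55 in HIP and 0.75 in P/FC. In P/FC the genes most like Car7 were Gypc (0.85), Nrn1 (0.84), Cyp26b1 (0.82), Fxyd7 (0.80) and Dact2 (0.79), and in HIP they were Mlip (0.69), Cbfa2t3 (0.68), Atrn (0.67), Iqsec1 (0.66) and Tmod1 (0.64).

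Car8, which is best known from cerebellar Purkinje cells, was dim. In P/FC it ran from 34.9 through 55.5 to 107 in FRL and from 38.8 through 55.3 to 87.2 in FSL, and its log2 change was -0.03 (95% interval -0.24 to 0.18). In HIP its means of 27.5 ± 5.79 and 29.9 ± 6.45 were below the filter. Car5b, the mitochondrial enzyme, had means of 31.9 ± 7.68 and 29.4 ± 5.47 in HIP and 46.9 ± 8.32 and 49.6 ± 8.00 in P/FC. Its changes of -0.10 (95% interval -0.30 to 0.10) and 0.09 (-0.07 to 0.25) were not called. Car12, a membrane enzyme, read between 6.32 and 40.7 over all arrays.

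Both the regions and the cohorts were compared for the same probesets. Fitting the 78 arrays together, 4 of the 8 members kept in both regions were higher in P/FC (Car5b, Car7, Car10 and Car11), 2 were lower (Car2 and Car14), and Car3 and Car4 were not called. Of all 20963 probesets kept in both regions 48.5% were higher and 21.1% lower in P/FC, and the median difference was 0.085. All 3 neuronal members were higher in P/FC, with a median of 0.24, and 2 of the 3 glial or vascular members were lower, with a median of -0.34. Beside them, 8 of 9 oligodendrocyte markers were lower in P/FC, with a median of -0.25, and so were 4 of 5 choroid plexus markers. The methods took both regions from the same rats, but no label says which HIP and P/FC arrays share a rat, so the fit treats all 78 as independent and leaves that sharing out of its errors.

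Car10 had the largest difference between regions of the family. Its HIP arrays ran from 44.4 through 110 to 189 and its P/FC arrays from 327 through 767 to 1031, with no overlap. The log2 difference was 2.83 (SE 0.086, 7.13-fold higher in P/FC, limma adjusted p = 1.88e-43). The other members differed by less. Car5b was higher by 0.67 (SE 0.064), the 3 Car11 probesets by 0.24, 0.18 and 0.18, and Car7 by 0.21 (SE 0.051, limma adjusted p = 0.0003). Car14 was lower in P/FC by a log2 difference of -0.56 on its main and -0.22 on its second probeset, and Car2 by -0.34 and -0.38. Car4 differed by -0.003 (95% interval -0.07 to 0.06) and Car3 by -0.25 (-0.61 to 0.11).

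**Figure D5:**
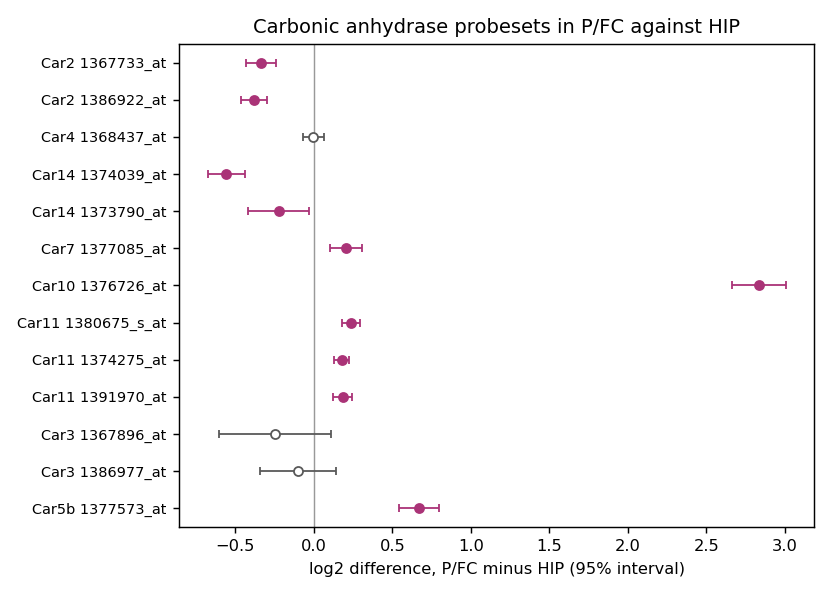
Log2 difference, P/FC minus HIP, of the 13 carbonic anhydrase probesets kept in both regions (points, with 95% intervals as bars; filled points were called at an adjusted p below 0.05). Car10 stands at 2.83, far from the other members, which lie between -0.56 and 0.67.

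The line difference of no member was shown to depend on region or on cohort. None of 13 probesets was called for the difference between regions, where the lowest adjusted p was 0.63 and none had an unadjusted p below 0.05, and 0.0668% of all probesets were called. Between cohorts limma called none of 13 in HIP and none of 14 in P/FC, with 1 probeset at an unadjusted p below 0.05 in each region. No probeset of the whole array was called for that difference in either region, where 936 and 1036 had an unadjusted p below 0.05. Cohort 2 itself was lower than cohort 1 in 22.2% of all HIP and 13.2% of all P/FC probesets. Among members, Car7 was lower in cohort 2 in HIP by a log2 difference of -0.21 (limma adjusted p = 0.0165), the second Car2 probeset in HIP was lower by -0.31, and Car11 probeset 1374275_at was lower in P/FC by -0.18 (limma adjusted p = 0.0014). The main Car2 probeset differed by -0.05 between cohorts in HIP, so its 2 probesets were not alike in that comparison.

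Few of the genes that carry the substrates and products of carbonic anhydrases were called between lines. Of all probesets 7.33% were called in HIP and 18.6% in P/FC, and these short lists were not tested against that share. Of 7 bicarbonate transporters none was called in HIP and 1 was lower in FSL in P/FC, Slc4a2, an anion exchanger, at -0.17 (adjusted p = 0.0083). None of 4 sodium-proton exchangers, none of 4 monocarboxylate transporter genes, which carry lactate with protons, and none of 3 chloride cotransporters was called in either region. Their medians lay between -0.03 and 0.002 in HIP and between -0.09 and 0.02 in P/FC. Of the further carbonic anhydrases with a kept probeset, Car6, a secreted enzyme of saliva, was lower in FSL in HIP at -0.23 (adjusted p = 0.0331) and not called in P/FC (-0.06).

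Between regions the same lists were divided, where 48.5% of all probesets kept in both regions were higher in P/FC and 21.1% lower. Of the bicarbonate transporters 2 were higher in P/FC (Slc4a3 by 0.42 and Slc4a10 by 0.29) and 4 lower, with Slc4a7 at -0.53. Of the sodium-proton exchangers 2 were higher (Slc9a5 by 0.62) and 2 lower, with Slc9a2 at -1.14 and Slc9a8 at -0.35. Of the monocarboxylate transporter genes Slc16a7 was higher by 0.68 and Slc16a3 by 0.44, and Bsg, a chaperone of some of these transporters, was at -0.09. Of the chloride cotransporters Slc12a5, the neuronal potassium-chloride exporter, was higher by 0.27.

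Among the members themselves only some followed each other over the arrays of a region once group means were removed. In P/FC Car10 correlated with Car7 at 0.75, with Car4 at 0.57 and with Car2 at -0.50, and Car3 correlated with Car4 at -0.52. In HIP Car2 correlated with Car14 at 0.61. These correlations are over 39 arrays that share dissection and labelling, and they are given as a description. The genes nearest to Car3 were less like it than those near Car2 or Car10. They were Chmp2b (0.62) and Igsf23 (0.60) in HIP and Hnrnpr (0.67), Hs6st2 (0.66), Bcl6 (0.65), Bcl11b (0.65) and Retreg1 (0.64) in P/FC. The low FRL arrays of Car3 enter all its correlations, and how far these rest on those arrays was not tested.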

How the data were processed

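Per the labels and the methods, RNA of each rat and region was hybridised to 1 Affymetrix rat genome array, and normalisation by the authors used Rosetta Resolver; the deposited values are linear intensities, with no read depth, so the number of arrays limits the precision. Gene names came from the platform annotation (20826 probesets with 1 symbol, 436 with several, 9780 with none; 57 control probesets were left out). Values under 1 were set to 1 and log2 taken. Each region was fitted in limma 3.58.1 (R 4.3.3) with line by cohort means, and all 78 arrays were fitted for regions; Python 3.11.15, numpy 2.4.6, pandas 2.3.3 and matplotlib 3.10.9 were used. The script was tested on simulated data. The authors' labelling batch is not in the labels and was not modelled. Members, lists and tests were chosen with earlier results of these data known. By rule, values are given for main probesets and others called over both cohorts, up to 3 called genes of any other list, and up to 5 genes most like a member whose highest correlation was over 0.6. Alternatives were other filters, offsets, normalisation, covariates, variances and separate cohorts.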

Additional observations from a re-analysis of the deposited data

Results flagged for a closer look

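An array was marked when its gap to the next array, on the log2 scale, took up most of the range of its line, cohort and region (Dixon's test at 95%). This marked 10 of 81 groups, and chance marks about 1 in 20 of independent groups. Probesets of 1 gene share their arrays, so the groups are not independent. FRL groups of cohort 1 held more than 10 arrays and were not tested, and their low Car3 arrays are given above. Car3 in FRL rats of cohort 2 accounted for 4 of the 10. These were 1 array in HIP and 1 in P/FC, each read on 2 probesets. On probeset 1367896_at the lowest array read 78.8 in HIP, where the next read 310, and 59.0 in P/FC, where the next read 232. On the second Car3 probeset, 1386977_at, the lowest read 32.6 in HIP and 28.6 in P/FC, and the highest FSL array of cohort 2 in HIP read 50.1 where the next read 39.3. Car8 had 1 high P/FC array in cohort 2 of each line, at 107 in FRL and 87.2 in FSL. Car2 probeset 1367733_at had a high FSL array of cohort 1 in HIP, at 1275 against 1021 for the next. Car2 probeset 1386922_at had a low FRL array of cohort 2 in P/FC, at 350.0. Car14 probeset 1373790_at had a high FRL array of cohort 2 in HIP, at 106.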

How the results depend on the processing

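Of the recomputed changes of probesets called in the fits above, 147 kept their direction and their call. Another 24 kept their direction without the call, and none changed sign. These counts pool all calls and are not split by comparison, so they do not describe the small line changes of Car2, Car4 and Car11 alone. The count of members called between lines in HIP was 3, and it was 1 with the Actb ratio as a covariate and 1 in each cohort fitted separately. In P/FC the count was 3, and it was 1 with the Gapdh ratio as a covariate and 1 in cohort 1 fitted separately. Car3 kept its call in all of these. The shares of all probesets called in these refits are not given here, so the member counts were not compared with them. In the fits above, 7.33% of all HIP probesets were called over both cohorts, and 2.36% and 2.33% in cohorts 1 and 2. In P/FC 18.6% were called over both cohorts and 7.80% in cohort 1. Car11 probeset 1380675_s_at also lost its HIP call without the filter (adjusted p = 0.0673) and with quantile normalisation (adjusted p = 0.0664). Car11 probeset 1391970_at gained a P/FC call with a filter of 100 (adjusted p = 0.0458), with the striatal score (0.0047) and in cohort 2 fitted separately (0.0254), and Car2 probeset 1386922_at gained a HIP call with a filter of 100 (0.0325), quantile normalisation (0.0470) and the choroid plexus score (0.0418). The cause of these changes of call was not tested. A single cohort also held fewer arrays than both together. Dim members (Car8, Car12 and the second probesets of Car4 and Car5b) are limited by their signal.

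Sample numbers recur across lines and regions, and they were tried as a replicate block. Not every pair of the same number had a correlation over 0.1, which 18 of 34 pairs across lines and 10 of 39 across regions did, and 7 of each matched best with their own number, so the numbers were not taken to pair the arrays. Pairs across lines in P/FC of cohort 2 came closest, with correlations of 0.07 to 0.39 and 6 of 8 over 0.1. With the block the counts were 3 in HIP, 3 in P/FC and 6 between regions, and no member was called for the line difference between regions. Car2 in P/FC was -0.24 with an adjusted p of 0.0977 under the block, and Car11 probeset 1391970_at in P/FC, not called without it, was -0.14 with an adjusted p of 0.0256. No other member probeset changed its call between lines, and none of those called between regions lost its call.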
